A study of Rattus norvegicus with 11 samples.

Results

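Descending thin limb cells (DTL) of the rat kidney were taken as the cells that the authors' deposited table names DTL. They numbered 2085 of 114615 cells, or 1.82%, and came from 11 male ZSF1 rats that carry the genotype label ZSF1-LeprfaLeprcp/Crl. Of these, 4 were lean, 4 were obese and untreated, and 3 were obese and received enalapril, an inhibitor of angiotensin-converting enzyme, dissolved in what they drank. All rats were 12 weeks old when obtained and had free access to a high energy chow. The protocols describe a vehicle group of obese rats, and for the lean rats they do not state what was added to the water. The obese phenotype of this strain comes with a defective leptin receptor, and the strain is used as a model of kidney disease in diabetes and obesity. The series title concerns blockade of the renin-angiotensin-aldosterone system. The comparisons below ask how abundant DTL cells were in each group, and how much RNA was recovered from each of them.

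The descending thin limb continues the straight part of the proximal tubule and leads down into the medulla, where the loop of Henle turns back towards the thick ascending limb. Its flat epithelium is rich in the water channel aquaporin-1 (Aqp1), and water leaves the tubule there as the surrounding interstitium becomes more concentrated. The urea transporter gene Slc14a2 gives rise to forms in the thin limb and in the collecting duct. This segment has few mitochondria and little active transport, whereas the thick ascending limb pumps salt and holds many mitochondria. The table gives cell type names, UMIs, genes, mitochondrial share, phase scores and map coordinates of each cell, and no level of any gene. Aqp1 and Slc14a2 were therefore not analysed here, and the name DTL was not checked against them. Nephron neighbours are called here as the authors named them, read in the usual renal sense: PST for the straight proximal tubule, TAL for the thick ascending limb and TAL/MD for thick limb with macula densa.

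Each animal gave 4232 to 18427 cells and 1817129 to 56007489 UMIs in total. In 6 animals the table holds more cells than the 10000 that the protocols say were loaded, and the sources used here do not resolve this for any share of cells below. The 4 lean rats gave 116, 23, 100 and 42 DTL cells, the obese rats 348, 241, 432 and 112, and the treated rats 270, 228 and 173. Lean rat 2 stood apart before any comparison: its cells reached down to 193 UMIs (unique molecular identifiers, which count captured RNA molecules), against a lower limit of 469 to 493 in the other 10 animals, and up to 1703. Treated rat 1 had the next lowest median over all its cells, 1132 UMIs. The comparisons were repeated without these 2 animals. Barcodes were shared between animals by 1654 pairs of cells, of which 14.4% had the same cell type name, and 0 of these pairs joined 2 DTL cells. Nothing in the labels gives a sequencing batch that crosses the groups, so batch and group cannot be told apart.

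DTL cells made up a larger share of the kidney cells in obese than in lean rats. In lean rats they were 1.04%, 0.543%, 1.30% and 0.649% of all cells. In obese rats they were 3.21%, 3.42%, 3.74% and 0.608%. Obese rats 1 to 3 lay above all lean rats, and obese rat 4 lay within the lean range. Counting error does not bridge this gap, since the exact (Clopper-Pearson, 95%) intervals ran from 3.40% to 4.11% in obese rat 3 and from 0.501% to 0.731% in obese rat 4. The group means were 0.883% ± 0.350 (SD, n = 4) in lean and 2.74% ± 1.44 (SD, n = 4) in obese rats. The share rose by 1.62 ± 0.49 (SE) on the log2 scale (edgeR quasi-likelihood, adjusted p = 0.0118). This is not rare among cell types: 12 of 20, or 60%, changed in that comparison, and PST cells rose by 1.28 ± 0.39 (adjusted p = 0.0118).

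**Figure D1:**
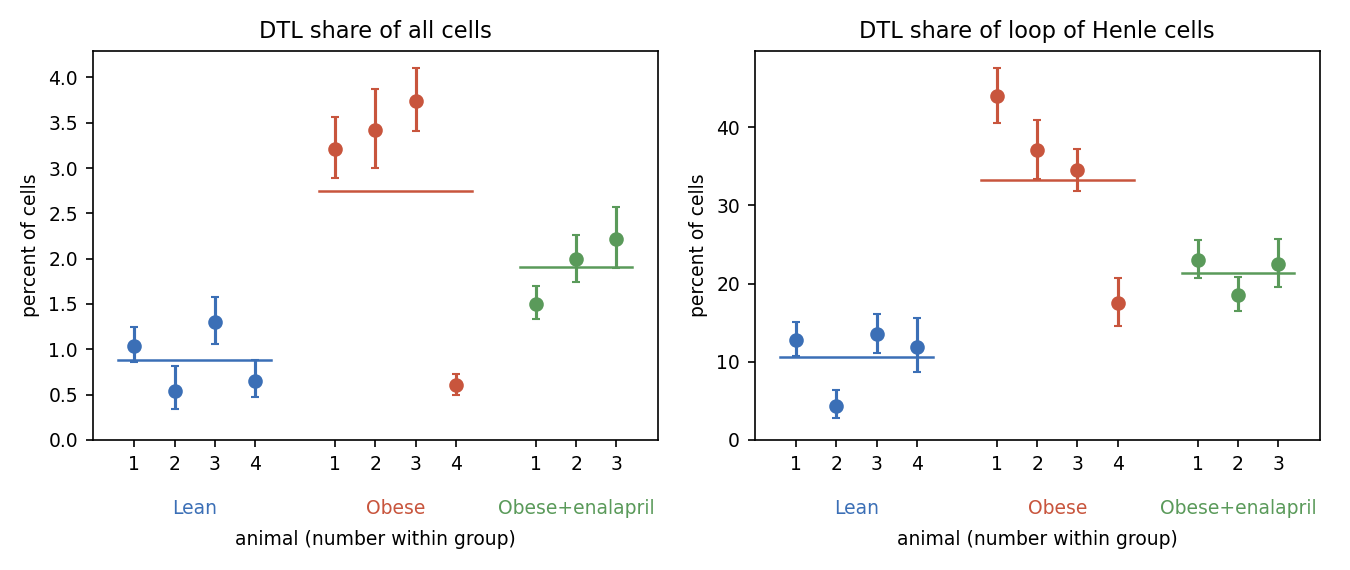
DTL cells as percent of all cells (left) and of loop of Henle cells (right) in each animal. Points are single animals, bars are exact 95% intervals that cover counting error, and horizontal lines are group means. Obese rat 4 sits at 0.608% of all cells among the lean rats, yet at 17.5% of the loop it is above each of them.

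Shares of all cells also move with the number of immune cells recovered, so DTL cells were counted against narrower totals. Against non-immune cells they were 1.26%, 0.589%, 1.61% and 0.713% in lean rats and 4.67%, 5.50%, 5.74% and 0.918% in obese rats. The difference was 2.00 ± 0.53 on the log2 scale (edgeR, adjusted p = 0.0110), beside 20% of 15 non-immune types that changed. Against tubule cells alone DTL cells were 1.43%, 0.609%, 1.93% and 0.790% in lean rats and 5.10%, 6.35%, 6.46% and 0.952% in obese rats. Here too the share rose, by 1.97 ± 0.54 (edgeR, adjusted p = 0.00951), where 25% of 12 tubule types changed. Without lean rat 2 and treated rat 1 the rise among tubule cells was 1.76 and no longer passed (adjusted p = 0.0513). Obese rat 4 lay inside the lean range on both totals. DTL had the highest estimate of all types tested on both totals, and the other type that rose on both was PST (1.69 ± 0.36, adjusted p = 0.00455, of non-immune cells).

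Within the loop of Henle, the sum of DTL, TAL and TAL/MD cells, the groups separated fully. DTL cells were 12.8%, 4.31%, 13.5% and 11.8% of the loop in lean rats. They were 44.0%, 37.1%, 34.5% and 17.5% in obese rats. All 4 obese rats lay above all 4 lean rats, with means of 10.6% ± 4.25 (SD, n = 4) and 33.3% ± 11.3 (SD, n = 4). The share rose by 1.64 ± 0.35 on the log2 scale (edgeR, adjusted p = 0.00694), and 23.5% of 17 types changed within their own compartment. TAL/MD cells fell by 0.55 ± 0.15 within the loop (adjusted p = 0.0169), and TAL cells did not pass (-0.16 ± 0.32). Shares within a total depend on each other, so more DTL cells and fewer TAL/MD cells per kidney cannot be told apart. In obese rat 4, whose DTL share of all cells was within the lean range, the whole loop was 3.47% of all cells. That was below each lean rat (5.49% to 12.6%), and the other obese rats lay within the lean range.

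Ratios to single neighbours leave the other types out of the total. Per 100 TAL/MD cells there were 22.1, 5.60, 20.5 and 24.0 DTL cells in lean rats and 118, 89.9, 69.7 and 41.5 in obese rats. Every obese rat was above every lean rat, and the log2 ratio differed by 2.24 (exact two-sided permutation p = 0.0286, the smallest that 4 against 4 animals allow, or 0.0857 after adjustment over 3 ratios). In obese rat 4 TAL/MD cells were 1.47% of all cells, below each lean rat (2.71% to 9.71%). The other obese rats lay within that lean range. Per 100 TAL cells the counts were 43.6, 23.0, 65.4 and 30.4 in lean rats and 237, 172, 217 and 43.4 in obese rats. Obese rat 4 fell among the lean rats on this ratio, and the difference of 1.90 did not pass (exact permutation p = 0.0857, adjusted p = 0.129).

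The ratio to PST, the segment just upstream, behaved differently. Per 100 PST cells there were 33.7, 17.3, 51.8 and 11.1 DTL cells in lean rats and 26.0, 39.7, 58.6 and 7.43 in obese rats. The groups overlapped over most of their range, and the log2 difference was 0.11 (exact permutation p = 0.886). Its sign turned when any 1 of 4 animals was left out (lean rats 2 and 4, obese rats 2 and 3), within a range of -0.29 to 0.71. So DTL and PST cells were both a larger part of the cells from obese kidneys, and no direction was measured between them.

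**Figure D2:**
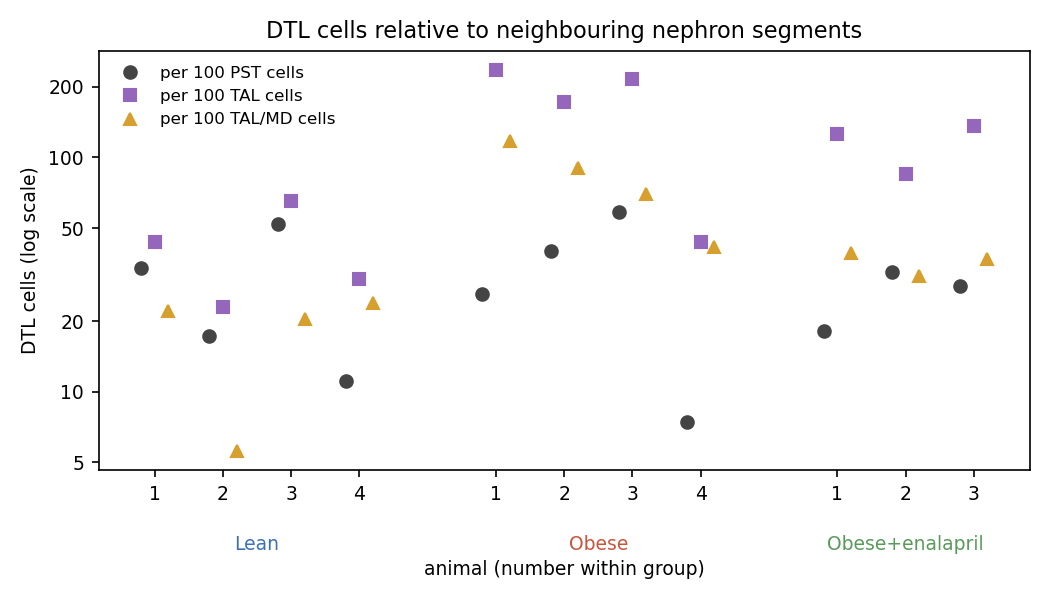
DTL cells per 100 cells of each neighbouring segment in each animal, on a log axis. Circles are ratios to PST, squares to TAL and triangles to TAL/MD. The triangles of the 4 obese rats (41.5 to 118) stand above those of the 4 lean rats (5.60 to 24.0), while the circles overlap.

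Obese rats that drank enalapril had a mean DTL share between those of the other groups. DTL cells were 1.50%, 1.99% and 2.22% of all cells in the treated rats, with a mean of 1.90% ± 0.364 (SD, n = 3). All 3 treated rats lay below obese rats 1 to 3 and above obese rat 4. Against untreated obese rats the difference was -0.53 ± 0.52 on the log2 scale and did not pass (edgeR, adjusted p = 0.593). It was -0.86 without obese rat 4 and -0.34 without obese rat 3. None of the 20 types changed by edgeR in that comparison (0%; 2 types had an unadjusted p under 0.05, and DESeq2 called 1 and limma 0). Against lean rats all 3 treated rats were higher, by 1.10 ± 0.52 (edgeR, adjusted p = 0.108), where 15% of types changed. That comparison passed when obese rat 4, which enters it only through the pooled spread, was left out (1.09, adjusted p = 0.0435).

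On narrower totals the mean of the treated rats again lay in between. Their DTL cells were 23.1%, 18.6% and 22.5% of the loop, which is above all lean rats, below obese rats 1 to 3 and above obese rat 4. The difference within the loop was -0.64 ± 0.36 against obese rats (edgeR, adjusted p = 0.364) and 1.00 ± 0.37 against lean rats (adjusted p = 0.0620). Within their compartments 5.88% and 29.4% of the 17 types changed in these comparisons. With DESeq2 in place of edgeR the difference from lean rats passed (1.01, adjusted p = 0.0227). The treated rats had 1.76%, 2.40% and 2.83% DTL cells among non-immune cells and 1.85%, 2.56% and 3.04% among tubule cells. Among tubule cells treated rat 1 lay within the lean range, below lean rat 3 at 1.93%. Obese rat 4 lay below all treated rats on both totals. Neither share passed against obese rats (-0.85 ± 0.56 and -0.92 ± 0.57) or against lean rats (1.15 ± 0.55 and 1.05 ± 0.56), with edgeR adjusted p from 0.142 to 0.569. The tubule share against obese rats did pass without obese rat 4 (-1.27, adjusted p = 0.0440).

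Set against TAL/MD cells, the treated rats did not overlap with either group. They had 39.3, 31.1 and 37.0 DTL cells per 100 TAL/MD cells, all above the lean and all below the obese rats. The log2 differences were 1.18 from lean (0.69 with lean rat 2 left out) and -1.06 from obese rats. The exact permutation test (two-sided) gave p = 0.0571 for both, its minimum with 4 against 3 animals, and adjusted p of 0.0857 and 0.171 over the 3 ratios. Per 100 TAL cells they had 126, 85.4 and 136 and per 100 PST cells 18.2, 32.5 and 28.2. The untreated obese rats serve as one side of 2 of these comparisons and the lean rats likewise, so the 3 contrasts are not independent of each other.

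Median UMIs per DTL cell were higher in each obese rat than in each lean rat, and the test over all types was passed when lean rat 2 was left out. The median DTL cell of lean rats had 1346.5, 374, 1602 and 1390 UMIs. In obese rats the medians were 3733.5, 2894, 4536 and 3153 UMIs, all above all lean values. In treated rats they were 1527.5, 3944 and 4355 UMIs, with treated rat 1 inside the lean range. Cells with at least 4000 UMIs were 6.90%, 0%, 6.0% and 9.52% of DTL cells in lean rats and 46.6%, 32.0%, 58.8% and 44.6% in obese rats. In lean rat 2, 0 of 23 DTL cells reached 1000 UMIs, a count that allows a share of up to 13.0% by counting error (3 counts of the total).

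The medians were compared over all types at once. Over all 11 animals the log2 difference between obese and lean rats was 1.78 ± 0.55 (limma, adjusted p = 0.0879), the highest of 18 cell types, whose median difference was 0.80. None of the 18 types passed (0%, with 2 at an unadjusted p under 0.05). Without lean rat 2 the DTL difference was smaller, 1.29 ± 0.39, and passed (adjusted p = 0.0198). Without lean rat 2 and treated rat 1 it was 1.29 ± 0.29 (adjusted p = 0.000302), and DTL was the 1 type of the set that passed. These animals were set aside for low UMIs, the measure tested here, so the smaller p is no separate support. Treated rat 1 enters this contrast only through the pooled spread. An exact permutation test of DTL alone gave p = 0.0286 over the 4 and 4 animals.

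**Figure D3:**
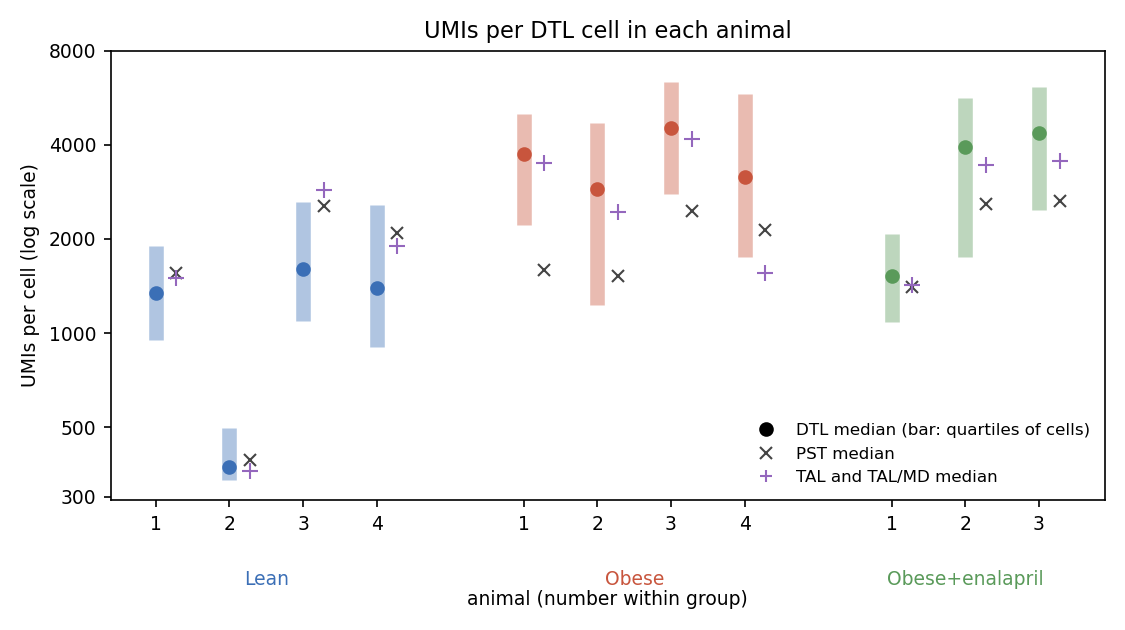
UMIs per DTL cell in each animal on a log axis. Circles are medians and bars the quartiles over cells, crosses are PST medians and plus signs the medians of TAL and TAL/MD cells together. In obese rats the DTL circles (2894 to 4536) lie above the crosses and the plus signs, and in lean rats 1, 3 and 4 they lie below both.

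Libraries with more UMIs in all cells would raise every type, so DTL cells were set against other cells of the same animal. Relative to the other loop cells the DTL median was -0.16, 0.04, -0.84 and -0.45 log2 units away in lean rats. It was 0.09, 0.25, 0.12 and 1.01 in obese rats and 0.10, 0.20 and 0.29 in treated rats. All obese and all treated rats exceeded all lean rats on this measure, whose reference pools TAL and TAL/MD cells. The means differed by 0.72 between obese and lean rats (exact permutation p = 0.0286, adjusted p = 0.0857 over 3 contrasts) and by 0.55 between treated and lean rats (exact permutation p = 0.0571, adjusted p = 0.0857). Treated and untreated obese rats differed by -0.17 (exact permutation p = 0.857). The groups were not separated against TAL/MD cells alone. TAL/MD medians were 4589, 3498.5 and 5124 UMIs in obese rats 1 to 3, above the DTL medians, and 2368.5 in obese rat 4. In lean rat 2 the TAL/MD median was 380 UMIs, relatively nearer to the DTL median (374) than in obese rats 1 to 3.

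All obese rats also exceeded all lean rats when DTL cells were set against PST cells or against all other cells of the animal. Relative to PST the DTL median was -0.21, -0.07, -0.67 and -0.58 in lean rats and 1.22, 0.92, 0.89 and 0.56 in obese rats. In treated rats it was 0.12, 0.61 and 0.72. The obese minus lean difference was 1.28 against PST and 0.91 against all other cells (both exact permutation p = 0.0286, adjusted p = 0.0857). When means over cells replaced medians, the difference against other loop cells was 0.44 and the groups overlapped (exact permutation p = 0.200). In an order of cell types by median UMIs, DTL stood at place 13 of 19, 10 of 17, 14 of 18 and 15 of 17 in lean rats. In obese rats it stood at place 7, 7, 7 and 4 of 19, and in treated rats at 9 of 20, 7 of 20 and 5 of 19. Whether cells held more RNA or more of it was captured cannot be told apart from these counts.

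**Figure D4:**
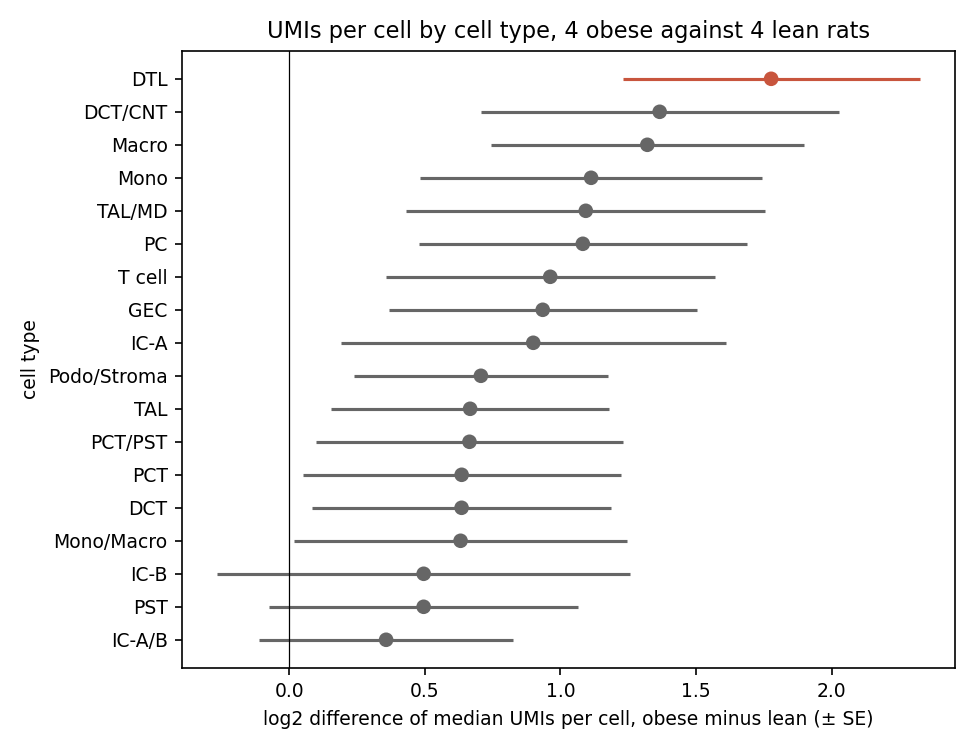
Difference in median UMIs per cell between 4 obese and 4 lean rats for each of 18 cell types, on the log2 scale with the standard error from limma. DTL has the highest estimate, 1.78, and PST is near the lower end with 0.50. None of the 18 differences passed an adjusted p of 0.05.

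Genes detected per DTL cell followed the UMIs. Median genes were 756.5, 207, 808 and 741.5 in lean rats, 1417, 1136, 1821 and 1244.5 in obese rats, and 743.5, 1513.5 and 1544 in treated rats. Obese and lean rats did not overlap, and treated rat 1 again lay with the lean rats. The log2 difference between obese and lean rats was 1.32 ± 0.47 (limma, adjusted p = 0.186), with 0% of 18 types passing and 2 at an unadjusted p under 0.05. Without lean rat 2 and treated rat 1 it was 0.85 (adjusted p = 0.00809), with the same limits as for UMIs. No deposited cell of any type had more than 2971 genes, and the part of such a ceiling in the result was not tested. DTL cells with at least 2500 genes were 0.862%, 0%, 1.0% and 0% in lean rats, 4.02%, 3.32%, 17.4% and 10.7% in obese rats and 0%, 6.14% and 6.36% in treated rats. Compared at equal UMIs, DTL cells of obese and lean rats differed by 0.06 ± 0.06 in log2 genes (limma, adjusted p = 0.790), where 11.1% of 18 types passed. The value was -0.00296 with lean rat 2 left out, so no direction was held.

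Mitochondrial UMIs were a smaller share in DTL cells than in TAL and TAL/MD cells pooled in 11 of 11 animals. They were smaller than in PST cells in 10 of 11. Beside TAL cells alone the DTL share was larger in lean rat 2 (2.94% against 0%) and lean rat 4 (9.92% against 1.71%), and smaller in the others. Against all other cells of the animal together the DTL share was lower in 2 of 11 animals and higher in 9. Median shares in DTL cells were 12.5%, 2.94%, 13.3% and 9.92% in lean rats. They were 18.2%, 20.6%, 13.1% and 14.9% in obese rats and 3.72%, 12.7% and 19.2% in treated rats. Obese rat 3 lay within the lean range, and lean rat 2 and treated rat 1, the animals with the lowest median UMIs over all their cells, had the lowest shares. The means were 9.67% ± 4.72 (SD, n = 4), 16.7% ± 3.34 (SD, n = 4) and 11.9% ± 7.78 (SD, n = 3). The obese minus lean difference of 7.05 ± 3.57 percentage points did not pass (limma, adjusted p = 0.330), and nor did -4.86 ± 3.85 between treated and obese rats (adjusted p = 0.677) or 2.19 ± 3.85 between treated and lean rats (adjusted p = 0.880). Without treated rat 1 the treated minus obese difference was -0.78 points, and without treated rat 3 it was -8.53. The treated minus lean difference turned to -1.48 without treated rat 3 and was 6.27 without treated rat 1, and without lean rat 2 it was -0.05. The obese minus lean difference was 4.81 with lean rat 2 left out. Of 18 types, 5.56% passed between obese and lean rats, and the type was DCT.

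The gap to the other loop cells was wider in each obese rat than in each lean rat. The DTL median minus the median of TAL and TAL/MD cells averaged -8.05 ± 2.75 percentage points (SD, n = 4) in lean rats and -12.8 ± 1.46 (SD, n = 4) in obese rats, without overlap. Treated rats averaged -9.29 ± 4.42 (SD, n = 3). The obese minus lean difference was -4.72 points (exact permutation p = 0.0286, adjusted p = 0.0857 over 3 contrasts). Among cells with at least 1000 UMIs it was -0.41 points (exact permutation p = 0.857), and against all other cells of the animal it was 1.72 points. The minimum of 1000 UMIs left no DTL cell of lean rat 2, so that value compares 4 obese with 3 lean rats. The wider gap was thus not seen in the better covered cells, and its sign depended on the reference.

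**Figure D5:**
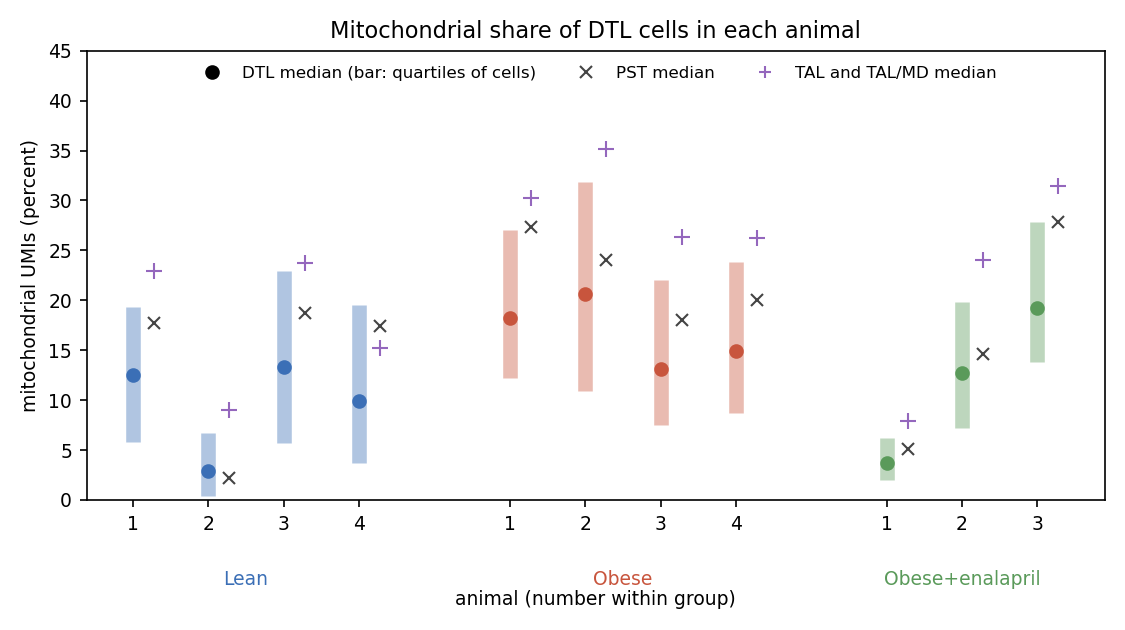
Mitochondrial UMIs as percent of all UMIs per cell in each animal. Circles are DTL medians with the quartiles over cells as bars, crosses are PST medians and plus signs medians of TAL and TAL/MD cells together. The plus sign is above the circle in all 11 animals, and lean rat 2 and treated rat 1 have the lowest DTL circles, 2.94% and 3.72%.

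Phase calls name each cell G1, S or G2M from 2 gene scores, and the G2M calls of DTL cells did not separate the groups. The percent called G2M was 20.7, 21.7, 25.0 and 26.2 in lean rats and 25.3, 24.9, 26.4 and 17.0 in obese rats, a difference of -0.02 ± 2.62 points (limma, adjusted p = 0.994), where 16.7% of 18 types passed. The percent called S was 29.3, 8.70, 25.0 and 21.4 in lean rats and 31.0, 30.7, 35.0 and 33.0 in obese rats. Treated rats had 31.5, 39.5 and 33.5. All obese and all treated rats were above all lean rats, with lean rat 2 far below the rest.

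Neither S difference passed: it was 11.3 ± 5.46 points for obese (limma, adjusted p = 0.401) and 13.7 ± 5.90 points for treated against lean rats (adjusted p = 0.386), with 0% of types passing and 2 and 1 at an unadjusted p under 0.05. Without lean rat 2 they were 7.19 and 9.58 points and did not pass either (adjusted p = 0.312 and 0.0786), and without treated rat 1 as well the latter was 11.3 points and passed (adjusted p = 0.0274). Mean S scores differed by 0.00947 ± 0.00332 (adjusted p = 0.0829) and 0.0124 ± 0.00358 (adjusted p = 0.0786). With lean rat 2 left out both score differences passed, and the former was then 0.0123. In 9 of 11 animals the mean S score of DTL cells was below 0, and the phase calls alone are not read as cycling. Lean DTL cells also had fewer UMIs, and the part of this, and of free RNA in the droplets, in the phase calls was not tested.

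On the authors' map of all cells, DTL cells formed a compact group. Of the 30 nearest cells to a DTL cell 92.1% were DTL, 3.02% Podo/Stroma and 2.64% TAL/MD. For 97 DTL cells (4.65%) most of these neighbours had other names, with TAL/MD at 44.5% and TAL at 16.7%. These 97 had a median of 1625 UMIs, against 2967 in the other 1988. Without them the share of DTL cells among all cells and within the loop kept its direction and its call in all 3 contrasts. The names were given by the authors from the same cells' expression, so the compactness is a description of how the cells were grouped.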

How the data were processed

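Droplet single-cell libraries came from the kidneys of 11 rats, with 10000 cells loaded per the labels' protocols, a number that 6 animals exceed in the deposited table. Per the submitters' processing notes, the tools included Seurat 4.3.0 and Cell Ranger 7.0.1, with genome build rn6. The sources used here do not give how cells were filtered, doublets handled and clusters made. UMIs and genes per cell are raw counts deposited by the authors. Mitochondrial share is a percent deposited by the authors. For each cell the authors also deposited an S and a G2M score. Map coordinates have no unit and were treated as a score, as deposited. DTL cells are those with that name in the authors' annotation, and 0 cells lacked an animal or had a group that differed from the labels. The members and the lists of types were chosen with earlier results of these data known. The animal was the replicate.

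Cells per type and animal were tested by robust quasi-likelihood in edgeR 4.0.16, without an abundance trend and with the cells of the stated total as library size, over 3 groups and 3 contrasts. A type entered if it averaged at least 10 cells per animal. The loop of Henle was the sum of DTL, TAL and TAL/MD cells, and each type was tested within its own such compartment. Per-type medians, percents and scores from at least 20 cells per animal were fitted with limma 3.58.1, UMIs and genes on the log2 scale. Genes at equal UMIs are residuals of log2 genes on log2 UMIs. Adjustment was by Benjamini-Hochberg over all types in a contrast, with a threshold of 0.05. Ratios and differences within an animal had exact two-sided permutation tests, adjusted over 3 ratios or 3 contrasts. Alternatives included DESeq2 1.42.0, other filters and leaving out animals. The edgeR and limma tests were also run on simulated data with independent types and a common spread. Those runs do not show how the tests behave on shares that depend on each other. Scripts used scikit-learn 1.9.0, scipy 1.17.1, pandas 2.3.3, numpy 2.4.6 and matplotlib 3.10.9 under Python 3.11.15, and R 4.3.3.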

Additional observations from a re-analysis of the deposited data

Results flagged for a closer look

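Among 4 animals of a group, the highest or lowest was set apart where its gap to the next exceeded Dixon's 95% critical value. This was so for 6 of the 30 sets of 4 values tested. Chance gives about 1 in 20 for a single set. The sets share cells and counts, so no excess over chance is read from them. Obese rat 4 was low in DTL percent of all cells (0.608), in percent of DTL cells called G2M (17.0) and in mean G2M score (-0.0216). Lean rat 2 was low in median genes per DTL cell (207) and high in mean G2M score (-0.00827). Obese rat 3 was high in genes at equal UMIs (0.220 log2 units above the fit).

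The distance of DTL cells from the pooled TAL and TAL/MD cells of the same animal differed between obese and lean rats in 2 measures without overlap. The differences were 0.72 log2 units of UMIs and -4.72 percentage points of mitochondrial UMIs. Each had an exact two-sided permutation p of 0.0286 and an adjusted p of 0.0857.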

How the results depend on the processing

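In all, 51 DTL results were recomputed under 903 alternatives. Of these, 821 kept direction and side of the threshold, 46 changed sign, 31 newly passed and 5 no longer passed. Permutation tests of 4 against 3 animals or fewer could not pass, as their smallest p is at least 0.0571. Gaps between DTL and reference cells could not pass between obese and lean rats either, since their adjustment takes in the contrasts with treated rats. For these the side of the threshold was fixed in advance, so the 821 are not a measure of robustness. The rise of the DTL share from lean to obese rats passed on every total whichever single animal was left out (1.43 to 1.96 of all cells, 1.39 to 1.85 of the loop, 1.81 to 2.33 of non-immune and 1.76 to 2.32 of tubule cells). Exact permutation of logit shares gave 1.44, 2.13, 1.86 and 1.85, with adjusted p of 0.176, 0.121, 0.321 and 0.257. Before adjustment only the loop share was at the smallest p that 4 against 4 animals allow (0.0286), and on the other 3 totals obese rat 4 lay within the lean range. Choices on DTL cells near other types on the map, on the 2 animals of lowest UMIs and on reference cells were made after seeing the data. TMM factors were not run within compartments. Depth limits the values of lean rat 2 most.

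For treated against lean rats the loop share newly passed with DESeq2 (1.01), limma (1.31) and a minimum of 1000 UMIs (0.81), and the tubule share with these 2 groups only (1.05). Leave-one-out ranges for this contrast were 0.93 to 1.34 of all cells, 0.74 to 1.14 of the loop, 0.96 to 1.43 of non-immune and 0.84 to 1.38 of tubule cells, and for treated against obese rats -1.27 to -0.73 of tubule cells. In each of these 5 ranges the difference passed only without obese rat 4.

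Without the 2 animals of lowest UMIs, the differences newly passed for UMIs (1.29 obese and 1.52 treated against lean), genes (0.85 and 0.99), percent called S (11.3 treated), S score (0.0123 and 0.0155) and G2M score (0.00884 obese), while the tubule share did not (1.76, obese against lean). The animals were chosen by low UMIs, so the passes for UMIs and genes are no separate support. In the same setting signs turned for treated against obese rats in UMIs (0.23), genes (0.15), percent called G2M (-0.0714) and the PST ratio (0.23), for treated against lean rats in genes at equal UMIs (-0.0557) and percent called G2M (-0.65), and for obese against lean rats in genes at equal UMIs (-0.00296) and the PST ratio (-0.0529). Permutation of DTL alone, without adjustment over types, passed for UMIs (1.78), genes (1.32) and percent called S (11.3), obese against lean. These count among the 31 that newly passed.

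A minimum of 50 cells gave S scores that passed (0.0123 obese and 0.0153 treated against lean) and turned the mitochondrial percent (-1.05, treated against lean), genes at equal UMIs (-0.00334 obese and -0.0675 treated) and percent called G2M (0.54 obese). A minimum of 1000 UMIs gave S and G2M scores that passed (0.0177 and 0.0155, treated against lean), as did the S score of DTL cells with mostly DTL neighbours (0.0137). It turned genes at equal UMIs (-0.0302 obese and -0.0899 treated), percent called G2M (1.78 obese) and the mitochondrial gap to other loop cells (5.27, treated against lean). That gap also turned with all other cells as reference (1.72 obese against lean, -3.93 treated against obese) and with PST (0.33, treated against lean), and the UMI gap with all other cells (0.00968, treated against obese). The causes were not tested.

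Leaving out single animals gave, for obese against lean rats, 1.29 to 1.99 for UMIs, -0.00296 to 0.101 for genes at equal UMIs, -1.02 to 2.12 for percent called G2M, 0.0073 to 0.0123 and 0.00393 to 0.00884 for S and G2M scores, and -0.29 to 0.71 for the PST ratio. For treated against obese rats the ranges were -0.52 to 0.23 for UMIs, -0.38 to 0.15 for genes, -0.35 to 4.07 for percent called G2M, -6.77e-05 to 0.00561 for the S score, -0.62 to 0.37 for the PST ratio and -0.26 to 0.0452 for the UMI gap. For treated against lean rats they were -1.48 to 6.27 for mitochondrial percent, -0.0671 to 0.0366 for genes at equal UMIs, -0.092 to 4.05 for percent called G2M, 0.0094 to 0.0152 and 0.00697 to 0.0119 for S and G2M scores, -0.28 to 0.46 for the PST ratio and -3.77 to 0.25 for the mitochondrial gap.

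Whether animal numbers pair the rats was not settled. Of 10 same-numbered pairs, 5 had a correlation of deviations over 0.1 (-0.444 to 0.516). The median was 0.164, against -0.0042 for other pairs, and 8 of 11 animals correlated best with an animal of their own number. With a replicate block the DTL share of all cells differed by 1.41 between obese and lean rats (adjusted p = 0.0198), no DTL call changed, and the count of types called in that comparison was 12 as before. Over all settings the count of types called ranged from 0 to 13 of all cells and from 0 to 9 within compartments between obese and lean rats, where 12 and 4 passed in the reported tests. Exact permutation of logit shares gave the 0 on both totals. Its p cannot fall below 0.0286 before adjustment over types, so few calls were possible there.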

Other observations

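Taking abundance and UMIs per cell together, DTL cells contributed 0.943%, 0.555%, 0.903% and 0.450% of all UMIs in lean rats 1 to 4. In obese rats they contributed 4.76%, 4.30%, 4.67% and 0.787%, and in treated rats 1.75%, 2.24% and 3.02%. All 3 treated rats and obese rats 1 to 3 were above every lean rat, and obese rat 4 was not. In lean rats 1, 3 and 4 the DTL share of UMIs was below their share of cells, and in obese rats 1 to 4 it was above.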
